A study of Mus musculus with 12 samples.

Results

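The reciprocal marrow transfers were 2 groups of mice that exchanged donor and host strain, and their spleen T cells were set directly against each other. The 4 arrays were chosen by their labels alone, from 12 in the series. In the NODtoB6 group (2 arrays) B6 mice had received marrow from NOD donors, and in the B6toNOD group (2 arrays) NOD mice had received marrow from B6 donors. Every array measured total RNA of spleen T cells of these recipients in 1 channel and spleen T cell RNA of B6 mice in the other, so each value is a log2 ratio to B6. The other 8 arrays measured B6.NODIdd1,5 kidney and the spleen T cells of 3 unmanipulated strains (NOD, NOD.H2h4, B6.NODIdd1,5), also against B6. The conditioning of the hosts, the time after transfer, the share of donor cells, the age and sex of the mice, and any sort of the T cells are not stated. The arrays of a group are not stated to be separate animals, so the spread between them may be technical. Donor and host changed together between these groups, so the contributions of donor and host cannot be told apart.

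NOD mice develop autoimmune diabetes spontaneously, whereas B6 mice do not. After a marrow transfer, donor stem cells give rise to new blood cells, while the thymus, in which the new T cells mature and are selected on host MHC molecules, and the stroma of the spleen remain those of the host. A T cell preparation from spleen can also carry RNA of other blood cells, which in mouse spleen include neutrophils, B and plasma cells and the red cell precursors that this organ makes. S100a9, Lcn2 and Ltf encode proteins stored in neutrophil granules or cytosol. The globin genes serve red cell precursors, and Jchain and Ighm encode parts of the antibodies made by plasma cells.

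Of 7462 genes with a value on all 4 arrays, 875 (11.7%) were higher in NODtoB6 than in B6toNOD T cells and 1498 (20.1%) were lower. Together these 2373 genes made up 31.8% of those tested. The fit was limma's moderated test over all 12 arrays, and the threshold was an adjusted p of 0.05 after Benjamini-Hochberg adjustment. The groups' arrays did not overlap for 4573 genes (61.3%), and for each of the 2373 genes past the threshold. Differences of at least 1 on the log2 scale were reached by 498 of the higher and 647 of the lower genes. Among the named genes, S100a9, Lcn2 and Ltf of neutrophils were lower in NODtoB6, and 4 globin genes and the antibody genes Jchain and Ighm were higher. Btk and Sdc1, other B cell and plasma cell genes, were lower. Once all arrays were scaled to the same spread, S100a9 and Lcn2 no longer passed. The Ighm call did not hold when each array was left out in turn. Many ribosomal protein genes and glycolytic genes such as Gapdh were lower relative to the typical gene. So were Actb, Ppia and Hspa8, which serve other functions. Whether these ratios depend on spot brightness was not tested.

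These counts depended on how the spread and the scale of the arrays were set. With only the 4 transfer arrays in the limma fit, 0 genes passed (smallest adjusted p = 0.072), although 2077 had an unadjusted p under 0.05, against 3204 in the fit of all 12 arrays. The within-group standard deviation was 0.493 in NODtoB6 and 0.699 in B6toNOD, against 0.189 to 0.601 in the other 4 groups, so the shared estimate of spread was smaller than that of the B6toNOD arrays. With a weight for each group, 325 genes were higher and 703 lower. The typical absolute deviation of a gene from its array's median was 0.338 and 0.379 on the NODtoB6 arrays, against 0.595 and 0.576 on the B6toNOD arrays, and scaling all arrays to 1 such deviation left 483 higher and 838 lower. As deposited, before centring, the median difference of all genes was 0.51, and 2025 genes were higher and 430 lower. Higher and lower below therefore mean relative to the typical gene of the array. Of the 27 gene lists used below, 20 held more lower than higher genes, while as deposited 23 held more higher than lower genes. Counts of each list compare with 11.7% higher, 20.1% lower and 31.8% past the threshold over all genes. A set of 606 genes (244 higher, 362 lower) passed in the main fit and also with group weights, with scaled arrays and as deposited. These 606 also passed in the same direction without each of the 4 arrays. Leaving out each of the 4 arrays in turn kept 1382 of all 2373 calls (393 higher, 989 lower). Of 108 named genes past the threshold, 88 were kept in this way. The 20 that were not are B2m, Cd44, Eif2s3x, Entpd1, Fech, Gata3, Gzmm, H2-DMa, Ifitm2, Ighm, Igtp, Il7r, Itgb2, Jund, Oas2, Selplg, Tfrc, Tgtp1, Urod and Zfp36. Mpeg1, given below, and genes that the naming rules picked but the text does not name are not counted here. Many of their calls were not kept. Most counted genes were named for wide gaps, so 88 of 108 does not stand for all calls.

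No dye is stated for the transfer arrays, and the direction of the ratio, recipient over B6, was taken from the channel labels as likely. NODtoB6 and B6toNOD arrays correlated positively with each other over all probes (r = 0.188 to 0.228). Turning the sign of the NODtoB6 arrays would reverse the globin and antibody genes below. It would leave S100a9, Lcn2, Anxa1, Ltf and Lyz2 lower, which follows from their values above B6 in both groups. With the B6toNOD arrays turned instead, these genes would be higher. Of the 108 named calls, 29 would change sign and 19 would keep their sign but miss the threshold, among them Fezf2 (-1.24, limma adjusted p = 0.055) and Adpgk (-0.06, adjusted p = 0.94).

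**Figure D1:**
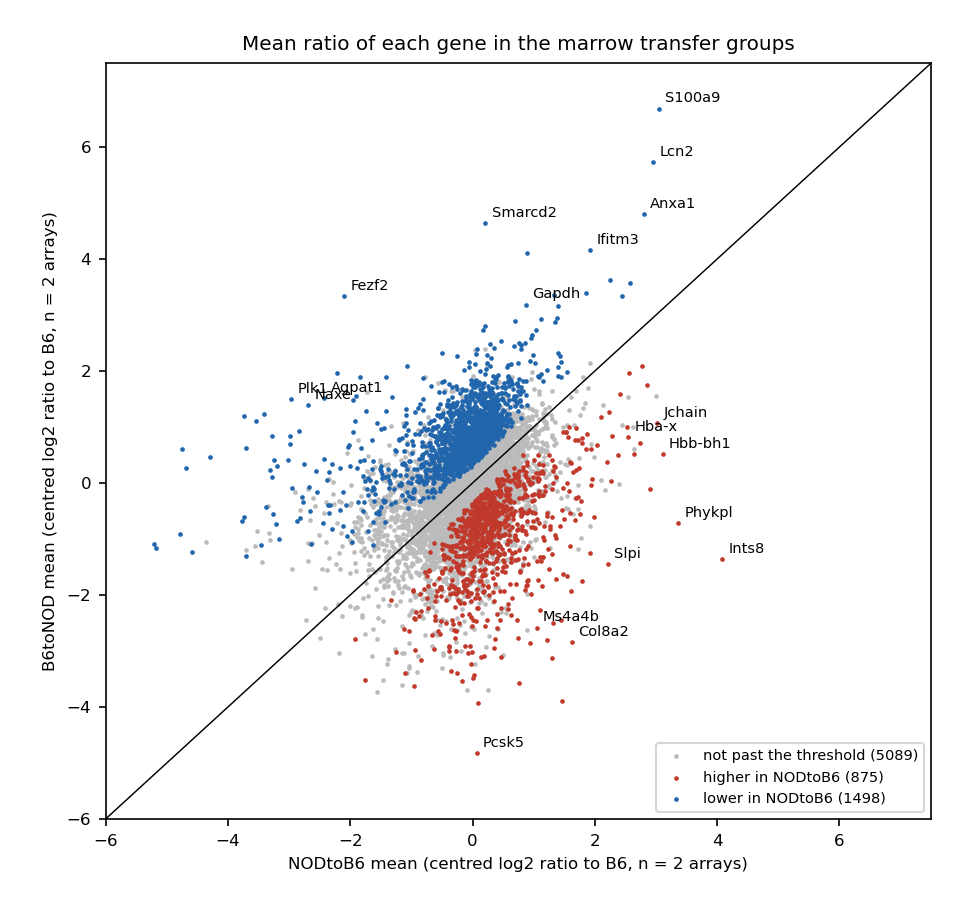
Mean centred log2 ratio to B6 in NODtoB6 (horizontal axis) and B6toNOD (vertical axis) for 7462 genes, n = 2 arrays per group. Red points are the 875 genes higher and blue points the 1498 genes lower in NODtoB6, grey points did not pass, and the line marks equal means. S100a9 and Lcn2 lay far above 0 in both groups and higher in B6toNOD, and values spread wider along the B6toNOD axis than along the NODtoB6 axis.

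The sign of the group means shows on which side of B6 the genes lay. Of the 875 higher genes, 547 were above 0 in NODtoB6 and below 0 in B6toNOD, 93 were above 0 in both groups and 235 below 0 in both. Of the 1498 lower genes, 758 were below 0 in NODtoB6 and above 0 in B6toNOD, 651 were above 0 in both and 89 below 0 in both. The neutrophil and globin genes past the threshold belonged to those above 0 in both groups. These sides rest on the likely direction of the ratio. With the NODtoB6 arrays turned, 1404 of 1653 higher genes would be above 0 in NODtoB6 and below 0 in B6toNOD, and 1601 of 1946 lower genes the reverse.

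Promoters of neutrophil, globin and interferon genes past the threshold are shown here for the motif searches. Each is 300 bases of the mouse assembly GRCm38.p6 from RefSeq, 250 before to 50 after the annotated start, written 5′ to 3′ on the gene's strand. Capitals mark the match. For the neutrophil genes the motif is the C/EBP site TTGCNNAA, for the globin genes TGATAA, which GATA factors can bind, and for Ifitm3 the interferon-stimulated response element, written as GAAA, any 2 bases and GAAA. Both strands were searched. These spellings were kept after a wider set had been looked at.
S100a9 promoter (chr3:90695672-90695971, minus strand): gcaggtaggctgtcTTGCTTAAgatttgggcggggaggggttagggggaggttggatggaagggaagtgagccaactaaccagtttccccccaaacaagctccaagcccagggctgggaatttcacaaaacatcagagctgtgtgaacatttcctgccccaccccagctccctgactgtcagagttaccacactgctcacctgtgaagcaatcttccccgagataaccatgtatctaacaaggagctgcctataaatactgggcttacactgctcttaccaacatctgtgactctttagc
Lcn2 promoter (chr2:32387690-32387989, minus strand): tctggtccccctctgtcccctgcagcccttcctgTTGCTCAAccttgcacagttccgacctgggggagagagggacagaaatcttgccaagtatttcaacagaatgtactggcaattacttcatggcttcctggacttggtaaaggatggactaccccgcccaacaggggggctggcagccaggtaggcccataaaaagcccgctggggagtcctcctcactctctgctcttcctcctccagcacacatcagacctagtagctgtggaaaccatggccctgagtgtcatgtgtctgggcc
Ltf promoter (chr9:111019042-111019341, plus strand): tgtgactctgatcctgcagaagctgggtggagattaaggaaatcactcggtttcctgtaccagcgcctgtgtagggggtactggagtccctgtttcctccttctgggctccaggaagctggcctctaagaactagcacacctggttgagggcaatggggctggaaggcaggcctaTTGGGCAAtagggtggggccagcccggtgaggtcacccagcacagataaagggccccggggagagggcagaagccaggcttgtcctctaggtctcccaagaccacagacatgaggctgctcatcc
Hba-x promoter (chr11:32276350-32276649, plus strand): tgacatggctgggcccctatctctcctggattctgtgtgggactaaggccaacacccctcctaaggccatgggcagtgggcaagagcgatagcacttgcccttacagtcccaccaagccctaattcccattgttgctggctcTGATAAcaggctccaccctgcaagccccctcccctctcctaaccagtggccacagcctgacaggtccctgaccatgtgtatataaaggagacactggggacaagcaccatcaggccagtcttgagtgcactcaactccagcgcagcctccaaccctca
Hbb-y promoter (chr7:103853158-103853457, minus strand): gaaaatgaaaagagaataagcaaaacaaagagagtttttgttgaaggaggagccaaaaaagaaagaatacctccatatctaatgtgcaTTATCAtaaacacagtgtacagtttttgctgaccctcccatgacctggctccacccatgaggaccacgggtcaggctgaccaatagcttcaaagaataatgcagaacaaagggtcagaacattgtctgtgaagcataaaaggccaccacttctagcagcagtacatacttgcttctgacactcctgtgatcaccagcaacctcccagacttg
Ifitm3 promoter (chr7:141010695-141010994, minus strand): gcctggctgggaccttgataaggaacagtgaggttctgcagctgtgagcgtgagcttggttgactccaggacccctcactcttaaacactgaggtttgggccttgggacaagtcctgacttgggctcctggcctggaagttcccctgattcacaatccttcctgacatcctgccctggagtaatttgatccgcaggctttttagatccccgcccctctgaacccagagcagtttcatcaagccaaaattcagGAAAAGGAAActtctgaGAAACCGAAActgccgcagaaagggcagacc
The C/EBP letters stood in the promoters of 4 of the 5 neutrophil genes that were lower (S100a9, Lcn2, Ltf and Anxa1), against 8.18% of 6015 tested genes with a promoter sequence. TGATAA was found for 2 of 5 erythroid genes past the threshold with a promoter sequence (Hba-x and Hbb-y), against 3.91% of all, and the more common spelling AGATAA for 0 of 5, against 6.42%. The interferon element stood in 5 of 7 interferon genes past the threshold with a promoter sequence (Ifitm2, Ifitm3, Igtp, Tgtp1 and Psme1), against 3.01% of all. Of these 5, Igtp was higher and the others lower. The first promoter listed for a gene was used, and a match describes the letters only. Members of these lists that did not pass were not counted, so these shares do not bear on the difference between the groups. Ifitm3 is shown for this list because it had the largest negative difference among the interferon genes.

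Of 9 tested neutrophil genes 5 were lower in NODtoB6 than in B6toNOD T cells, and these 5 lay above B6 in both groups. S100a9, a subunit of the calcium-binding protein calprotectin that fills the neutrophil cytosol, had 3.11 and 3.0 on the NODtoB6 arrays, against 6.4 and 6.97 on the B6toNOD arrays. Both B6toNOD arrays were high, and the groups did not overlap. The difference was -3.63 ± 0.18 (standard error of the fit here and below, n = 2 arrays per group), or 12.4-fold lower (limma, adjusted p = 5e-05).

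Lcn2, which encodes the granule protein lipocalin 2 that withholds iron from bacteria, had 3.06 and 2.85 in NODtoB6, against 5.78 and 5.68 in B6toNOD (difference -2.78 ± 0.35, limma adjusted p = 0.00096). Anxa1, an annexin abundant in neutrophils, had 2.85 and 2.75 in NODtoB6, against 4.81 and 4.78 in B6toNOD (-1.99 ± 0.25). The arrays of each group were close together for both genes. Ltf, the granule protein lactoferrin, had 0.86 and 0.71 in NODtoB6, against 2.49 and 2.44 in B6toNOD (-1.68 ± 0.1, limma adjusted p = 9.2e-05), and each of its 3 probes was lower without overlap. Ltf is among the genes named after their values were seen. Lyz2, the lysozyme of neutrophils and macrophages, had 2.66 and 2.49 in NODtoB6, against 3.61 and 3.54 in B6toNOD (-1.0 ± 0.13).

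Of the other neutrophil markers, 0 were higher and 4 (Mmp9, Fcgr3, Csf3r and Padi4) did not pass, so 5 of 9 were lower, against 20.1% of all genes. The median difference of the list was -1.0, against -0.025 over all genes. The list's median was 0.873 and 0.818 on the NODtoB6 arrays, against 2.49 and 2.44 on the B6toNOD arrays. All 5 calls held without each array. As deposited, 1 of the 9 was higher and 4 lower, and with group weights 0 were higher and 3 lower. With scaled arrays the list's median shrank to -0.121 and only Ltf of the 5 passed (-0.71, limma adjusted p = 0.024). S100a9 was then at -1.02 (adjusted p = 0.057), Lcn2 at -0.53 (adjusted p = 0.38), Anxa1 at -0.12 (adjusted p = 0.79) and Lyz2 at 0.39 (adjusted p = 0.34). In bulk RNA, fewer cells of a type and less RNA per cell cannot be told apart, and how far neutrophils in the preparations contributed to other differences was not tested.

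Smarcd2, a subunit of SWI/SNF chromatin remodelling complexes that granulocyte maturation requires, was lower as well. It had 0.18 and 0.24 in NODtoB6, against 4.32 and 4.97 in B6toNOD, a difference of -4.43 ± 0.21 that held with scaled arrays (-2.62, limma adjusted p = 0.00043). Slpi, a secreted inhibitor of neutrophil elastase, went the other way, with 2.03 and 2.39 in NODtoB6, against -1.14 and -1.75 in B6toNOD (3.65 ± 0.22, 12.6-fold higher). Slpi was thus above B6 in NODtoB6 and below it in B6toNOD.

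Monocyte, macrophage and dendritic cell markers showed no common direction, with 1 higher, 3 lower and 5 not past the threshold among 9 tested (median difference 0.046). Alox5ap, which presents arachidonic acid to 5-lipoxygenase for leukotriene synthesis, had 2.22 and 2.29 in NODtoB6, against 3.64 and 3.61 in B6toNOD (-1.37 ± 0.11), but 0.04 with scaled arrays. Fcgr1, a high-affinity antibody receptor of monocytes and macrophages, had -0.12 and -0.23 in NODtoB6, against 1.2 and 1.03 in B6toNOD (-1.29 ± 0.12). Lyz2 is the remaining lower member. Mpeg1, the 1 higher member, had 1.79 and 2.07 in NODtoB6, against -1.15 and 1.08 in B6toNOD (1.97 ± 0.63, limma adjusted p = 0.047). The Mpeg1 call did not hold without each array, and it is not counted among the 108 named calls. Ptgr1, an enzyme that inactivates leukotriene B4 and prostaglandins, was lower on both of its probes, with -1.73 and -2.11 in NODtoB6, against 1.08 and 1.15 in B6toNOD (-3.04 ± 0.17). One probe, at -5.64, accounted for most of this, and the other was at -0.43.

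**Figure D2:**
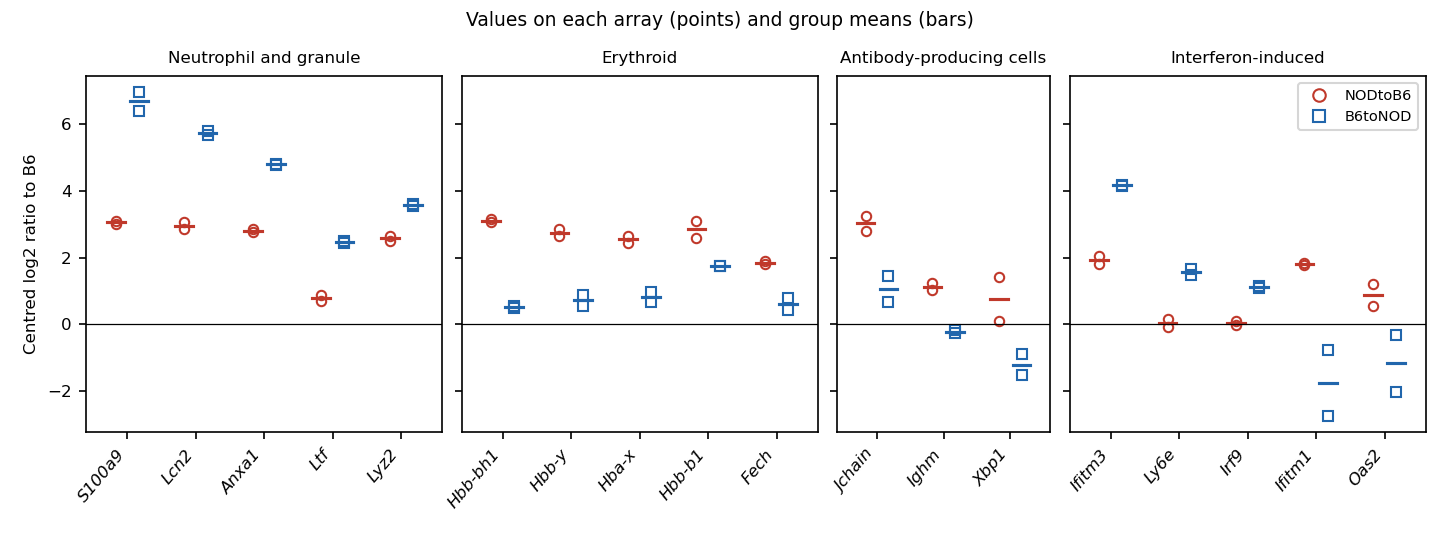
Centred log2 ratio to B6 (vertical axis) on each array for named genes of 4 kinds, with NODtoB6 as red circles to the left and B6toNOD as blue squares to the right. Bars are group means of 2 arrays. All 5 neutrophil genes were lower and all 5 erythroid genes higher in NODtoB6, without overlap between the groups. Btk and Sdc1, B cell and plasma cell genes that were lower, are not drawn.

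Of 17 erythroid and haem synthesis genes, 9 were higher in NODtoB6 than in B6toNOD T cells, 0 were lower and 8 did not pass. With group weights 5 of them were higher. Hbb-bh1, an embryonic beta-like globin, had 3.06 and 3.16 in NODtoB6, against 0.49 and 0.56 in B6toNOD, a difference of 2.59 ± 0.11 or 6.01-fold (limma, adjusted p = 7.3e-05). Hbb-y, another embryonic beta-like globin, had 2.85 and 2.63 in NODtoB6, against 0.89 and 0.54 in B6toNOD (2.03 ± 0.14), and all 4 of its probes were higher without overlap. Hba-x, an embryonic alpha-like globin, had 2.64 and 2.45 in NODtoB6, against 0.96 and 0.68 in B6toNOD (1.73 ± 0.16). All 4 arrays lay above B6 for these genes, and the groups did not overlap.

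Hbb-b1, an adult beta globin, had 2.59 and 3.1 in NODtoB6, against 1.74 and 1.75 in B6toNOD (1.1 ± 0.18, limma adjusted p = 0.003). Its 2 probes differed. One gave 3.29 and 3.42 in NODtoB6, against 1.5 and 1.62 in B6toNOD, and the other gave 1.89 and 2.78 in NODtoB6, against 1.98 and 1.88 in B6toNOD, where the groups overlapped. Globin genes are close in sequence and cDNA probes can bind transcripts of related genes. Which globin gave the signal is therefore uncertain for each of them.

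The other erythroid genes past the threshold, named after their values were seen, act around haem and iron. Fech, which inserts iron to form haem, had 1.9 and 1.8 in NODtoB6, against 0.78 and 0.44 in B6toNOD (1.24 ± 0.39). Urod, an earlier enzyme of haem synthesis, had 0.5 and 0.47 in NODtoB6, against -0.46 and -1.89 in B6toNOD (1.66 ± 0.41). The B6toNOD arrays were far apart for Urod, and neither the Fech nor the Urod call held without each array. Slc25a37, which carries iron into mitochondria, had 0.34 and 0.42 in NODtoB6, against -0.33 and -0.65 in B6toNOD (0.87 ± 0.14). The erythroid transcription factor Gata1 had -0.49 and -0.18 in NODtoB6, against -1.28 and -0.98 in B6toNOD (0.8 ± 0.15), below B6 on all 4 arrays. Tfrc, the transferrin receptor, averaged 0.44 in NODtoB6 and -0.23 in B6toNOD (0.68 ± 0.17), but 2 of its 4 probes were higher, 1 was lower and 1 overlapped.

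The 9 higher genes among 17 compare with 11.7% of all genes. The list's median difference was 0.80, with 0.57 after scaling and 1.33 as deposited. The list had 9 higher and 0 lower with scaled arrays, 8 of them also called without scaling (Gata1 was lost and Bpgm, named after its values were seen, was gained) and 11 higher and 0 lower as deposited. With the sign of the NODtoB6 arrays turned, 2 were higher and 7 lower, with a median of -0.15. Alas2, the first enzyme of haem synthesis in red cell precursors, was not tested because 1 value is missing. It had 2.8 and 2.84 in NODtoB6, against 1.66 on the 1 B6toNOD array with a value. Ncoa4, the receptor that delivers ferritin for breakdown and iron release, was higher on both of its probes, with 0.77 and 1.35 in NODtoB6, against -1.94 and -0.86 in B6toNOD (2.46 ± 0.44).

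Among platelet markers 3 were tested, of which 1 was higher and 2 did not pass. Ppbp, a chemokine precursor of platelet granules, had 1.84 and 0.9 in NODtoB6, against -1.13 and -2.31 in B6toNOD (3.09 ± 0.48). With the ratio direction taken as likely, neutrophil, red cell and platelet markers did not move one way together. The neutrophil genes were lower in NODtoB6, and the erythroid genes and Ppbp were higher. With the NODtoB6 arrays turned, 1 neutrophil gene would be higher and 7 lower, and 2 erythroid genes higher and 7 lower.

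The antibody genes Jchain and Ighm were higher in NODtoB6. Jchain, which joins the units of IgM and IgA, had 2.81 and 3.23 in NODtoB6, against 1.46 and 0.67 in B6toNOD (1.95 ± 0.28, limma adjusted p = 0.0016). Ighm, the IgM heavy chain, had 1.02 and 1.24 in NODtoB6, against -0.16 and -0.27 in B6toNOD (1.34 ± 0.27, adjusted p = 0.011). Xbp1, a transcription factor that plasma cells need for secretion, had 0.1 and 1.43 in NODtoB6, against -0.88 and -1.53 in B6toNOD (1.97 ± 0.44). Of its 2 probes, 1 had values on all 4 arrays (2.61). The NODtoB6 arrays were spread for Xbp1, and scaling ended its call (adjusted p = 0.058).

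Other B cell and plasma cell genes went against these. Btk, a kinase of the B cell receptor that myeloid cells also use, had -0.47 and -0.36 in NODtoB6, against 1.43 and 1.33 in B6toNOD (-1.79 ± 0.2). Sdc1, the plasma cell surface protein syndecan-1, had 0.08 and -0.19 in NODtoB6, against 0.77 and 1.07 in B6toNOD (-0.98 ± 0.16). In all, 3 of 10 tested markers were higher, 2 lower and 5 not past the threshold, with a median difference of -0.27.

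The T cell label could be checked against few of its defining markers. Of 30 T cell identity genes, 6 had values on all 4 arrays, of which 0 were higher, 1 was lower and 5 did not pass. Their median difference was 0.49, the groups' arrays did not overlap for 3 of the 6 on the higher side and 1 on the lower, and as deposited 4 were higher and 0 lower. Cd3e, Cd8a and Thy1 carried no probe with a single symbol here. Cd4 had 0.71 and 2.0 in NODtoB6 and no value on either B6toNOD array. Cd247, the zeta chain of the T cell receptor complex, had -0.7 and -0.31 in NODtoB6, against -1.64 on the 1 B6toNOD array with a value. These ratios compare T cell preparations with a B6 T cell preparation and give no absolute level of a marker.

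Il7r, the receptor chain for the survival cytokine interleukin 7, had -0.14 and 0.08 in NODtoB6, against 2.39 and 0.89 in B6toNOD (-1.67 ± 0.41, limma adjusted p = 0.017). The call did not hold without each array. Il7 itself had 0.33 and 0.32 in NODtoB6, against 1.38 and 1.31 in B6toNOD (-1.02 ± 0.099). Cd28, the costimulatory receptor of T cells, had 0.58 and 0.66 in NODtoB6, against 0.13 and 0.28 in B6toNOD and did not pass (0.42 ± 0.14, limma adjusted p = 0.062). As deposited Cd28 passed, at 0.95 (adjusted p = 0.017). Icos, a related receptor of activated T cells, had 0.28 and 0.22 in NODtoB6, against 2.9 and -0.26 in B6toNOD (-1.07 ± 0.86, adjusted p = 0.38). The B6toNOD arrays of Icos lay on either side of the NODtoB6 arrays, and the difference was 0.51 without B6toNOD replicate 1 and -2.65 without B6toNOD replicate 2 (adjusted p = 0.0024). Ctla4 carried no probe with a single symbol.

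Among 8 tested genes of T cell activation and regulatory T cells, 3 were higher, 2 lower and 3 not past the threshold. Thus 62.5% passed, against 31.8% of all genes. Entpd1, the ectoenzyme CD39 that breaks down extracellular ATP on regulatory T cells, had 0.7 and 0.68 in NODtoB6, against -0.73 and -2.0 in B6toNOD (2.06 ± 0.6, limma adjusted p = 0.035). Izumo1r, the folate receptor 4 found on regulatory T cells, had 0.68 and 0.33 in NODtoB6, against -0.67 and -0.75 in B6toNOD (1.22 ± 0.18, adjusted p = 0.002). Gata3, a transcription factor of T cell development and helper cells, had -0.1 and -0.03 in NODtoB6, against -1.39 and -0.92 in B6toNOD (1.09 ± 0.26) with both probes higher. Of these 3 calls only that of Izumo1r held without each array. Cd44, an adhesion receptor of activated T cells, was lower at -0.48 ± 0.11. Its 2 probes went opposite ways without overlap, and as deposited the difference was 0.05.

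Ms4a4b, a membrane protein of T cells, was among the genes with the widest separation. It had 0.92 and 1.17 in NODtoB6, against -2.77 and -2.39 in B6toNOD, a difference of 3.63 ± 0.18 (limma, adjusted p = 5.5e-05). All 4 NK and cytotoxic markers tested passed, 1 higher and 3 lower, against 31.8% of all genes. Ncr1, the activating NK receptor NKp46, had 0.26 and 0.34 in NODtoB6, against -0.44 and -0.85 in B6toNOD (0.94 ± 0.17). Eomes, a transcription factor of NK and memory CD8 T cells, had -0.44 and -0.62 in NODtoB6, against 0.92 and 0.88 in B6toNOD (-1.43 ± 0.11). Srgn, the granule proteoglycan serglycin, had 0.89 and 1.14 in NODtoB6, against 1.89 and 2.38 in B6toNOD (-1.12 ± 0.17), and the granzyme Gzmm was the other lower member.

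Homing and adhesion genes were mixed, with 3 of 22 higher, 6 lower and 13 not past the threshold. Their share past the threshold was 40.9%, against 31.8% of all genes. Itgb2, the beta chain of LFA-1, had 1.14 and 1.31 in NODtoB6, against 0.15 and -1.32 in B6toNOD (1.81 ± 0.4). Selplg, the ligand of P-selectin on leukocytes, had -1.48 and -2.32 in NODtoB6, against 1.56 and 1.55 in B6toNOD (-3.46 ± 0.85, limma adjusted p = 0.018). Neither call held without each array. Cxcr4, the receptor that retains cells in marrow through Cxcl12, had -0.32 and -0.1 in NODtoB6, against 1.19 and 1.13 in B6toNOD (-1.37 ± 0.19). Of 27 chemokines, cytokines and their receptors, 1 was higher, 7 lower and 19 not past the threshold, with a median difference of 0.078. That is 29.6%, close to the 31.8% of all genes, and as deposited 10 were higher and 1 lower.

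Stromal and endothelial markers counted 1 higher, 3 lower and 9 not past the threshold among 13 (median difference -0.19). Their share past the threshold, 30.8%, was close to the 31.8% of all genes. Vim, an intermediate filament that lymphocytes also make, had 1.5 and 1.29 in NODtoB6, against 2.36 and 2.29 in B6toNOD (-0.93 ± 0.11), but -0.02 with scaled arrays.

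Genes of the diabetes loci were also listed, since the MHC (Idd1) and a chromosome 1 interval (Idd5) carry different alleles in NOD and B6 mice. The class II gene H2-Eb1 averaged 0.62 in NODtoB6 and 0.75 in B6toNOD and did not pass (-0.13 ± 0.23, limma adjusted p = 0.72), and its sign changed under several settings. H2-Aa had 1.64 and 1.68 in NODtoB6, against -3.92 on the 1 B6toNOD array with a value, and was not tested. H2-DMa, which helps load class II molecules, had 0.05 and -0.01 in NODtoB6, against -0.64 and -0.54 in B6toNOD (0.61 ± 0.19). Of 5 class II and loading genes, 1 was higher, 1 lower and 3 not past the threshold. Probes for polymorphic MHC genes can bind the alleles of the strains unequally. H2-Ab1, H2-K1 and H2-D1 carried no probe with a single symbol here.

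Among 8 class I assembly genes 0 were higher, 4 lower and 4 not past the threshold, or 50% past it against 31.8% of all genes. B2m, the invariant chain of class I molecules, had 0.86 and 0.79 in NODtoB6, against 1.82 and 1.83 in B6toNOD (-1.0 ± 0.22, limma adjusted p = 0.011), with both probes lower. Pdia3, a chaperone of class I loading, had 0.11 and 0.06 in NODtoB6, against 1.47 and 1.65 in B6toNOD (-1.47 ± 0.12), and Tap2, a subunit of the peptide transporter, was lower at -0.72 ± 0.11. As deposited 1 of the 8 was lower, and B2m was then at -0.47 (adjusted p = 0.25).

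Agpat1, an acyltransferase gene of the MHC region that serves phospholipid synthesis, had the smallest adjusted p among the named genes, a rank shared with Naxe. It had -2.3 and -2.55 in NODtoB6, against 1.58 and 1.45 in B6toNOD, a difference of -3.94 ± 0.13 or 15.4-fold (limma, adjusted p = 1.7e-05). The difference held with scaled arrays (-3.33) and as deposited (-3.41). On the strain arrays Agpat1 was at 0.13 and 0.3 in NOD, 1.37 and 1.31 in NOD.H2h4, and 0.44 and 0.39 in B6.NODIdd1,5 T cells. None of these was below 0, as the NODtoB6 arrays were. Clic1, a chloride channel gene of the same region, had 1.11 and 1.06 in NODtoB6, against 2.0 and 1.8 in B6toNOD (-0.81 ± 0.11). Of 34 other genes of the MHC region, 3 were higher, 7 lower and 24 not past the threshold, a share of 29.4% that was close to the 31.8% of all genes.

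The Idd5 interval and other chromosome 1 candidates gave 1 higher, 10 lower and 25 not past the threshold among 36. That share, 30.6%, was close to the 31.8% of all genes. Arpc2, a subunit of the complex that nucleates actin branches, had 0.31 and 0.14 in NODtoB6, against 2.09 and 1.97 in B6toNOD (-1.8 ± 0.14), with both probes lower. Bcs1l, an assembly factor of respiratory complex III, had -0.33 and -0.54 in NODtoB6, against 0.97 and 1.02 in B6toNOD (-1.43 ± 0.11). As deposited, 8 of the 36 were higher and 3 lower. Other Idd candidates counted 1 higher, 5 lower and 7 not past the threshold among 13, the lower ones including Il7r, B2m and Cd44.

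Interferon response genes split between the groups. Ifitm3, which blocks entry of viruses and whose promoter is shown above, had 2.03 and 1.81 in NODtoB6, against 4.18 and 4.15 in B6toNOD (-2.24 ± 0.14, limma adjusted p = 0.0001). Ifitm1, a relative of Ifitm3, went the opposite way, with 1.77 and 1.82 in NODtoB6, against -0.77 and -2.74 in B6toNOD (3.55 ± 0.68, adjusted p = 0.0062). Ly6e, a lipid-anchored surface protein, had 0.17 and -0.08 in NODtoB6, against 1.65 and 1.48 in B6toNOD (-1.52 ± 0.16). Irf9, the DNA-binding part of the factor that interferon activates, had 0.09 and -0.02 in NODtoB6, against 1.15 and 1.1 in B6toNOD (-1.09 ± 0.1).

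Oas2, which makes the oligoadenylate signal for RNA breakdown, had 0.55 and 1.2 in NODtoB6, against -2.02 and -0.32 in B6toNOD (2.04 ± 0.56), and Igtp, an interferon-induced GTPase, was higher at 0.75 ± 0.22. Psme1, a proteasome activator, the GTPase Tgtp1 and Ifitm2, named after their values were seen, were lower at -0.92 ± 0.14, -0.81 ± 0.23 and -0.59 ± 0.13. In all, 3 of 22 were higher, 6 lower and 13 not past the threshold, with a median difference of -0.10. The 40.9% past the threshold compare with 31.8% of all genes. As deposited 7 were higher and 3 lower. With scaled arrays Ifitm3 was at -0.61 (limma, adjusted p = 0.097).

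Immediate-early and NF-kappaB feedback genes also split, with 8 of 30 higher, 7 lower and 15 not past the threshold (median difference 0.27). The share past the threshold was 50%, against 31.8% of all genes. As deposited 13 were higher and 2 lower. Dusp1, a phosphatase that switches off MAP kinases, had 2.18 and 2.28 in NODtoB6, against 1.3 and 1.22 in B6toNOD (0.97 ± 0.11). Zfp36, which destabilises cytokine transcripts, had 1.92 and 1.83 in NODtoB6, against 0.97 and 0.77 in B6toNOD (1.01 ± 0.21). Both, named after their values were seen, lay above B6 on all 4 arrays. Nfkbib, an inhibitor that holds NF-kappaB in the cytosol, had 0.88 and 0.69 in NODtoB6, against -1.64 and -1.53 in B6toNOD (2.36 ± 0.33), and Birc3, an inhibitor of cell death that NF-kappaB induces, was higher on both probes (1.3 ± 0.2).

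Rela, the activating subunit of NF-kappaB, had -0.14 and -0.19 in NODtoB6, against 0.94 and 0.79 in B6toNOD (-1.03 ± 0.1). Klf4, a transcription factor that restrains lymphocyte division and promotes monocyte development, had -2.01 and -2.85 in NODtoB6, against 0.48 and 0.38 in B6toNOD (-2.86 ± 0.25) and was lower on both probes (-4.73 and -1.0). Jund, a subunit of AP-1, had -2.6 and -3.3 in NODtoB6, against 0.66 and -0.83 in B6toNOD (-2.86 ± 0.56). For Klf4 and Jund the NODtoB6 arrays were the ones far from B6. Of 25 apoptosis regulators 3 were higher, 5 lower and 17 not past the threshold, with a median of 0.004. At 32%, their share past the threshold was close to the 31.8% of all genes.

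**Figure D3:**
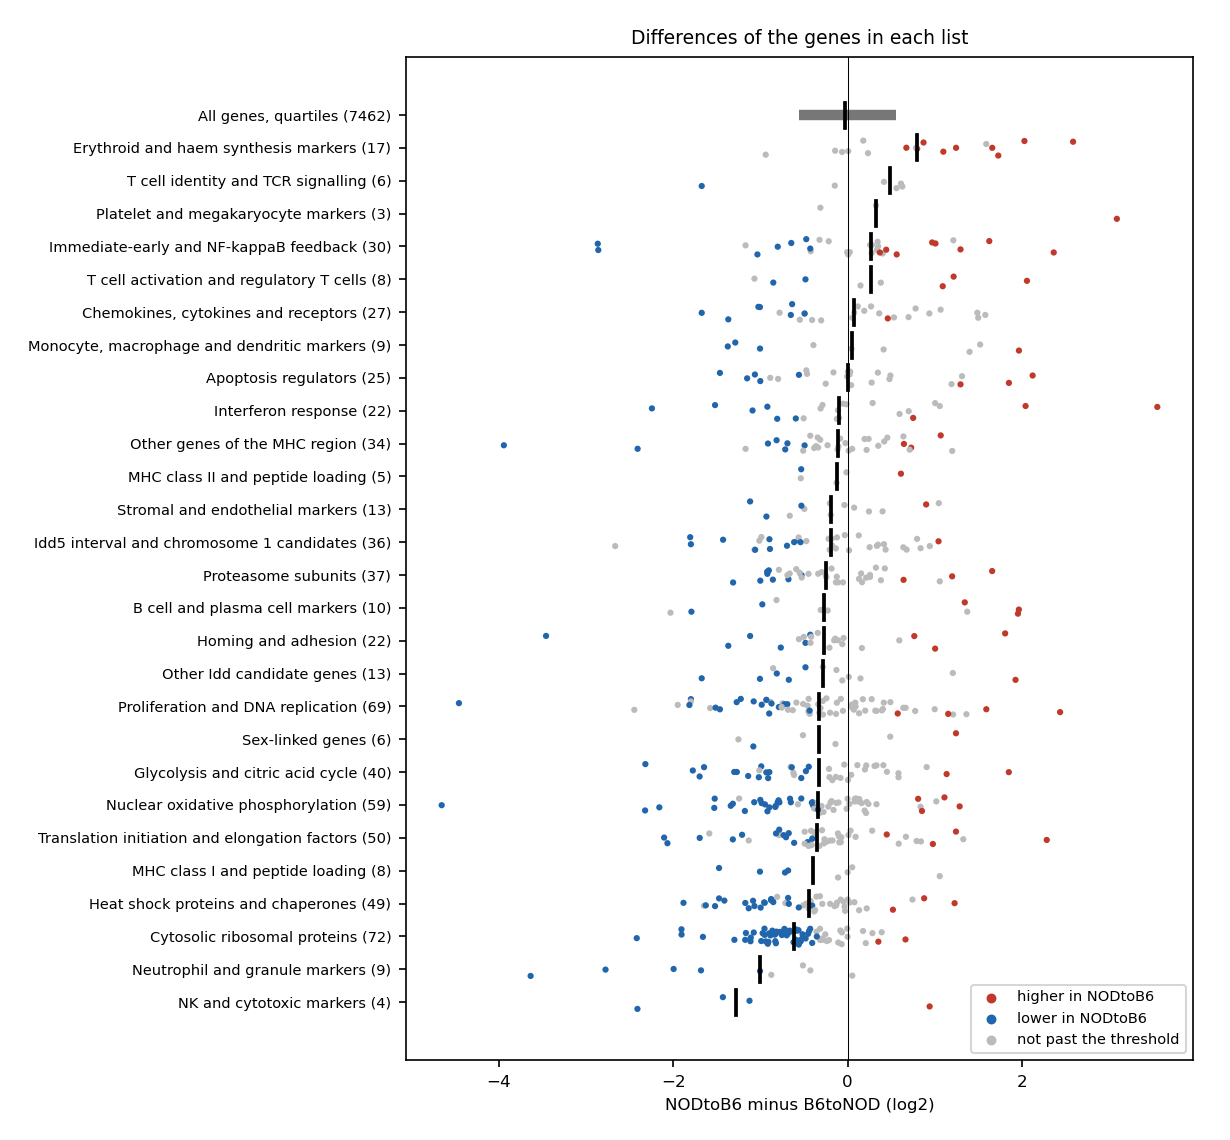
Difference NODtoB6 minus B6toNOD (log2, horizontal axis) of each tested gene in 27 lists, with the number of genes in parentheses. Points are red where higher, blue where lower and grey where not past the threshold, the black bar is the median of the list, and the grey band spans the quartiles of all 7462 genes. The erythroid list has the highest median (0.80) and the NK and neutrophil lists the lowest, with the ratio direction taken as likely, and the NK list holds 4 genes only. With the NODtoB6 arrays turned, the medians would be -0.15 (erythroid), -0.01 (NK) and -3.25 (neutrophil).

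Cytosolic ribosomal protein genes were lower in NODtoB6 relative to the typical gene. Of 72 tested, 2 were higher, 52 lower and 18 not past the threshold, with a median difference of -0.61. The 75% past the threshold compare with 31.8% of all genes (20.1% lower). The list's median was 0.051 and -0.043 on the NODtoB6 arrays, against 0.694 and 0.652 on the B6toNOD arrays. As deposited the median difference was -0.077, with 5 higher and 8 lower. The count of lower ribosomal genes thus rests on setting the typical gene to 0. With scaled arrays it was 30 and with group weights 32.

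Rps19, Rpl15 and Rps12, parts of the small and large ribosomal subunits, are named for the gaps between their groups. Rps19 had -0.5 and -0.64 in NODtoB6, against 1.36 and 1.31 in B6toNOD (-1.9 ± 0.13), and stayed lower as deposited (-1.37, limma adjusted p = 0.0023). Rpl15 was at -1.9 ± 0.17, with 3 of 4 probes lower without overlap. Rps12 was at -1.66 ± 0.12. Rps7 was one of the 2 higher members, with -0.12 and -0.27 in NODtoB6, against -0.85 and -0.87 in B6toNOD (0.66 ± 0.1). Pseudogenes and related copies of ribosomal protein genes share sequence, so the source of each signal is uncertain.

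Among 40 glycolysis and citric acid cycle genes 2 were higher, 16 lower and 22 not past the threshold, or 45% against 31.8% of all genes (20.1% lower). Gapdh had 0.96 and 0.77 in NODtoB6, against 3.22 and 3.15 in B6toNOD, a difference of -2.32 ± 0.11 or 4.99-fold (limma, adjusted p = 5e-05). Pkm, the last kinase of glycolysis, had 0.72 and 0.62 in NODtoB6, against 2.51 and 2.38 in B6toNOD (-1.77 ± 0.11), and Pgk1, the earlier kinase that also yields ATP, was lower at -1.7 ± 0.22. As deposited, 7 of the 40 were higher and 5 lower, and Gapdh (-1.79) and Pkm (-1.24) stayed lower. Adpgk, a glucokinase that uses ADP, had -1.97 and -1.7 in NODtoB6, against 1.84 and 1.94 in B6toNOD (-3.73 ± 0.53).

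Of 59 nuclear genes of oxidative phosphorylation, 4 were higher, 26 lower and 29 not past the threshold. Thus 50.8% passed, against 31.8% of all genes. Cox7c, a subunit of cytochrome oxidase, had -0.59 and -1.04 in NODtoB6, against 1.49 and 1.52 in B6toNOD (-2.32 ± 0.16). Ndufs3, a subunit of complex I, had -0.05 and -0.23 in NODtoB6, against 2.09 and 1.95 in B6toNOD (-2.16 ± 0.11). The higher ones included Atp5g1, a subunit of the ATP synthase ring (1.29 ± 0.19), of whose 2 probes one was at 2.65 and the other at -0.08. Ndufv1, the complex I subunit that binds NADH, also passed (1.11 ± 0.19), but its groups were averaged over different probes. Its only probe with values on all 4 arrays had -0.03 and 0.69 in NODtoB6, against 0.03 and 0.38 in B6toNOD, which overlap (0.12). The other probe had 2.67 and 1.94 in NODtoB6 and no value in B6toNOD. As deposited the list held 12 higher and 7 lower, so its direction depended on centring.

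Chaperones counted 3 higher, 19 lower and 27 not past the threshold among 49 (median difference -0.45, and 0.088 as deposited). Their share past the threshold was 44.9%, against 31.8% of all genes. Hspa8, the constitutive Hsc70, had 0.18 and 0.05 in NODtoB6, against 2.03 and 1.96 in B6toNOD (-1.88 ± 0.099), and all 4 probes were lower without overlap. Ppia, cyclophilin A, had 0.67 and 0.44 in NODtoB6, against 2.07 and 2.08 in B6toNOD (-1.52 ± 0.15), lower on all 5 probes. The actin gene Actb, named after its values were seen, had 0.79 and 0.78 in NODtoB6, against 2.43 and 2.35 in B6toNOD (-1.6 ± 0.1), lower on all 8 probes, which ranged from -2.06 to -1.1.

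Of 50 translation initiation and elongation factors, 4 were higher, 14 lower and 32 not past the threshold, or 36% against 31.8% of all genes. As deposited 10 were higher and 5 lower. Eif4h, a helper of the cap-bound helicase, was lower on both probes (-3.68 and -0.53, mean -2.1 ± 0.33), and Eif3c, a subunit of the complex that joins the small ribosomal subunit, had 0.34 and 0.34 in NODtoB6, against 2.52 and 2.3 in B6toNOD (-2.06 ± 0.25). Eif4ebp2, a repressor that binds the cap-binding protein, was higher, with 0.62 and 1.03 in NODtoB6, against -1.62 and -1.3 in B6toNOD (2.29 ± 0.18). Of 37 proteasome genes 3 were higher, 8 lower and 26 not past the threshold, a share of 29.7% close to the 31.8% of all genes. As deposited 8 of them were higher and 1 lower. Psmd3, a subunit of the regulatory particle, was lower at -1.31 ± 0.16. Psmd10, which helps assemble that particle, was higher on both probes, at 1.66 ± 0.33.

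Proliferation genes gave 4 higher, 16 lower and 49 not past the threshold among 69, while 11 were higher and 5 lower as deposited. The share past the threshold, 29%, was close to the 31.8% of all genes. Plk1, a kinase of mitosis, had -3.98 and -1.95 in NODtoB6, against 1.6 and 1.39 in B6toNOD (-4.46 ± 0.64, limma adjusted p = 0.0017). Zwilch, part of the kinetochore checkpoint, had -4.4 and -2.42 in NODtoB6, against 1.4 and 1.06 in B6toNOD (-4.64 ± 0.53). The NODtoB6 arrays were far apart for both genes. Ncaph, a condensin subunit, had -0.02 and -0.29 in NODtoB6, against 1.56 and 1.76 in B6toNOD (-1.81 ± 0.13).

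Cks2, a partner of cyclin-dependent kinases, had 0.34 and 0.48 in NODtoB6, against 1.96 and 1.89 in B6toNOD (-1.51 ± 0.11), and Birc5, which acts in chromosome segregation, was lower at -1.46 ± 0.25. Ccnd1, a cyclin of early cell cycle entry, was higher, with 0.37 and 0.67 in NODtoB6, against -1.45 and -2.39 in B6toNOD (2.44 ± 0.33), but only 1 of its 2 probes had a value on all 4 arrays (3.0). H2az1, a histone variant, was lower on all 4 probes, with 0.32 and 0.02 in NODtoB6, against 2.8 and 2.66 in B6toNOD (-2.56 ± 0.17). Tubb5 and Tubb4b, beta tubulins, were lower on all 3 probes each, at -2.41 ± 0.16 and -1.92 ± 0.11. One Tubb5 probe accounted for much of the mean. It was at -5.08, against -1.43 and -0.71 for the others.

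Several genes with the widest gaps belonged to none of these groups and rest on 1 probe with values on all 4 arrays. Pcsk5, a protease that cuts hormone and growth factor precursors, had 0.17 and -0.04 in NODtoB6, against -4.27 and -5.38 in B6toNOD (4.89 ± 0.35, 29.6-fold, limma adjusted p = 0.00012). Col8a2, a short-chain collagen, had 1.97 and 1.29 in NODtoB6, against -3.1 and -2.57 in B6toNOD (4.46 ± 0.37). Ints8, a subunit of the Integrator complex that processes small nuclear RNA, had 3.24 and 4.92 in NODtoB6, against -2.27 and -0.45 in B6toNOD (5.44 ± 0.96). The arrays of each group were far apart for Ints8. Phykpl, a mitochondrial enzyme that breaks down phosphorylated hydroxylysine, had 2.72 and 4.02 in NODtoB6, against -0.93 and -0.51 in B6toNOD (4.09 ± 0.38). Snx13, a sorting nexin of endosomes, was higher at 4.02 ± 0.42. Its probe with values on all 4 arrays was at 3.25, and its other probe had a value on 1 array only.

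Fezf2, a zinc finger factor known from the forebrain and from thymic epithelium, had -1.44 and -2.76 in NODtoB6, against 2.79 and 3.89 in B6toNOD, a difference of -5.44 ± 0.45 or 43.3-fold (limma, adjusted p = 0.00019). Chchd4, which imports proteins into the mitochondrial intermembrane space, had -5.48 and -3.12 in NODtoB6, against 0.69 and 0.25 in B6toNOD (-4.77 ± 0.64). Naxe, which repairs damaged NADH, had -2.7 and -2.68 in NODtoB6, against 1.27 and 1.51 in B6toNOD (-4.08 ± 0.15, adjusted p = 1.7e-05). Shroom2, an actin-binding protein of epithelial and endothelial cells, had -2.57 and -1.87 in NODtoB6, against 1.87 and 2.05 in B6toNOD (-4.18 ± 0.22). Each of these 4 was below B6 in NODtoB6 and above it in B6toNOD. Spot brightness was not analysed here, so whether a large ratio comes from a dim spot was not tested. Whether the ratios on the B6toNOD arrays change with brightness was not tested either.

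Genes with several probes show how far the probes of a gene went together. Of 1898 genes with 2 or more probes, all measured on the 4 arrays, 570 were past the threshold, and for 271 of these (78 higher, 193 lower) every probe separated the groups in the same direction. Among all 2373 genes past the threshold, 108 had probes that separated the groups in opposite directions. A gene passed on the mean of these same probes, so their agreement is no independent support for a call. Among the higher genes with concordant probes were Hsf5, a member of the heat shock factor family (3.28 ± 0.32), Kifap3, which links kinesin to its cargo (2.43 ± 0.26), and Zyg11b, a substrate receptor of a ubiquitin ligase (2.71 ± 0.45). Hsf5 had 0.28 and 0.41 in NODtoB6, against -3.02 and -2.86 in B6toNOD. The difference lay in B6toNOD, where both arrays were far below B6.

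Set beside the other arrays of the series, the transfer groups took different places. S100a9 was at 2.16 and 2.23 in NOD, 2.44 and 2.46 in NOD.H2h4, and -1.16 and -1.18 in B6.NODIdd1,5 T cells, so the B6toNOD values of 6.4 and 6.97 were above those of all 8 strain arrays. Hbb-bh1 was at 2.76 and 2.93 in NOD, near its NODtoB6 values, and at -0.29 and -0.26 in B6.NODIdd1,5. Hbb-y was at 2.04 and 2.03 in NOD, and Hba-x at 1.84 and 1.91. In NOD.H2h4, Hbb-y was at 0.82 and 0.85 and Hba-x at 0.95 and 0.9, near their B6toNOD values, and Hbb-bh1 had no value. Jchain was at 0.66 and 0.75 in NOD, below both NODtoB6 values. Gapdh, at 0.32 and 0.34 in NOD and between -0.85 and 0.69 on all strain arrays, was below its B6toNOD values of 3.22 and 3.15 on every other array. Each array has a B6 channel, but whether the same B6 RNA was used on all of them is not stated. These values are descriptions with no test.

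Of 6 tested sex-linked genes 1 was higher, 1 lower and 4 not past the threshold. The Y-linked Eif2s3y had 0.24 and 0.3 in NODtoB6, against 1.48 and 1.21 in B6toNOD (-1.08 ± 0.14), and 1 of its 2 probes had values on all 4 arrays (-1.39). Its X-linked relative Eif2s3x had 0.25 and 0.26 in NODtoB6, against -0.62 and -1.35 in B6toNOD (1.24 ± 0.4). Whether the groups differed in the sex of the mice was not tested.

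**Figure D4:**
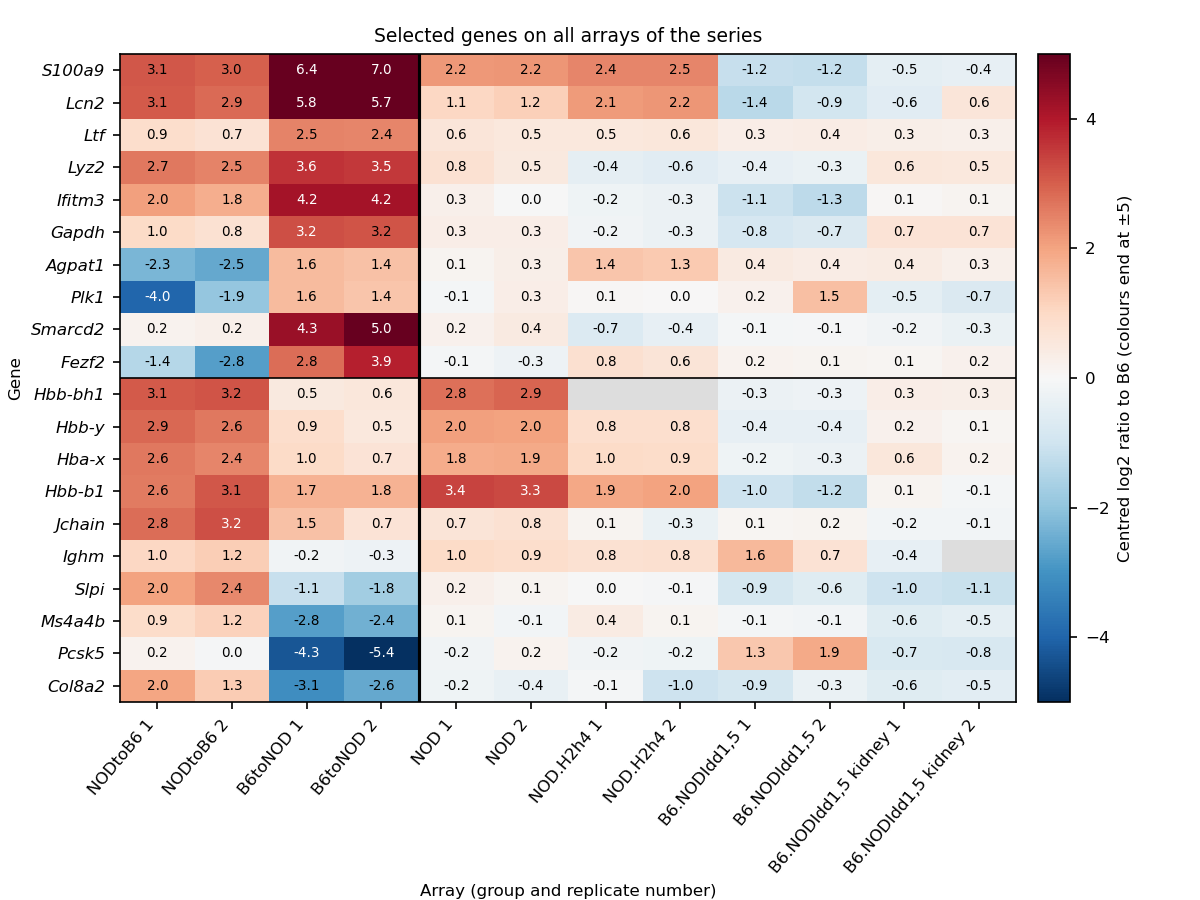
Centred log2 ratio to B6 of 20 genes (rows) on the 12 arrays (columns), with NODtoB6 and B6toNOD left of the line and the 8 strain arrays right of it. Upper rows are genes lower and lower rows genes higher in NODtoB6, and grey cells have no value. S100a9 reached 6.4 and 6.97 in B6toNOD, and the globin rows were high in NODtoB6 and NOD and lower in NOD.H2h4 where measured.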

How the data were processed

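Spleen T cell RNA of marrow recipients was measured on 2-colour cDNA arrays of 20736 probes. Per the labels, each deposited value is a log2 ratio, with the recipient's or strain's RNA over B6 RNA. Upstream tools and normalisation are not given here, and array medians differ, so no centring between arrays is visible. A ratio of 100000 (146 cells, 0 on the transfer arrays) was treated as no value. Of the probes, 13033 have 1 gene symbol, 312 several and 7391 none in the platform annotation. For 12850 of the single-symbol probes the gene identifier was found in RefSeq, which updated the symbol. Each array was centred on its median, probes were averaged to 8708 genes, and the 7462 genes with values on all 4 transfer arrays were tested. The other 1246 were left out. Each transfer array gave values for 18837 to 19862 probes. The number of arrays limits the precision.

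Group means over 12 arrays were fitted with limma 3.58.1 (lmFit, eBayes, R 4.3.3), with residual and prior degrees of freedom of 6 and 1.6. NODtoB6 minus B6toNOD was the contrast, with Benjamini-Hochberg adjustment and a threshold of 0.05. The procedure was tested on simulated data. This difference cancels the B6 channel only if 1 B6 RNA served both groups, which is not stated. Replicate numbers are not stated to mark shared animals or days. Genes were named by gap: the 10 widest gaps between the groups' arrays in each direction, the 6 widest among genes whose probes all separated the groups, up to 3 per list and direction, and a short list of immune genes. Genes added later are marked in the text, and some genes that the rules picked are not named in it. The members and the 27 gene lists were chosen with earlier results of these data known. Alternatives were other centrings and scalings, other arrays in the fit, group weights, leaving out each array, a replicate block, other probe rules, other filters and turned arrays.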

Additional observations from a re-analysis of the deposited data

How the results depend on the processing

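Counts of genes past the threshold were 2373 in all, 875 higher and 1498 lower in NODtoB6. Centring on a running median along the probes, centring on all probes, other probe rules, genes with a value on all 12 arrays and the 10 spleen arrays kept all 3 counts within 1.5 times. As deposited, 2025 were higher and 430 lower. Scaled arrays gave 1321 (483 higher, 838 lower), quantile normalisation 1362 (485 higher, 877 lower) and a weight for each group 1028 (325 higher, 703 lower), the last chosen after seeing the data. The 4 transfer arrays alone gave 0, 0 and 0. Leaving out 1 array gave 1749 to 2794 in all, 536 to 1222 higher and 1213 to 1572 lower. The fewest, 536 higher, came without NODtoB6 replicate 2. For the groups left with 1 array, it was taken to vary like the other groups.

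Same-numbered arrays did not deviate together (correlation 0.0083), and a replicate block in the fit of the 4 arrays gave 0 calls, 0 higher and 0 lower (1705 at an unadjusted p under 0.05, smallest adjusted p = 0.196), where the block leaves 1 residual degree of freedom before moderation. With the NODtoB6 arrays turned, 3599 genes passed (1653 higher, 1946 lower), and turning the B6toNOD arrays mirrors this (3599, with 1946 higher and 1653 lower).

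Of 111 named genes, Mpeg1 not counted, 108 passed. As deposited, Cd44 (0.05) and H2-Eb1 (0.41) changed sign, 15 calls were lost, Cd44 included, and Cd28 passed (0.95). Scaled arrays turned Alox5ap (0.04), H2-Eb1 (0.17) and Lyz2 (0.39) and ended 24 calls, those of Alox5ap and Lyz2 included. Quantile normalisation turned H2-Eb1 (0.14) and ended 15, and group weights ended 26. Leaving out 1 array gave -0.52 to 0.27 for H2-Eb1 and -2.65 to 0.51 for Icos, with the sign changed without B6toNOD replicate 1. Without NODtoB6 replicate 2, 20 named calls were lost, which are the 20 genes named above as not kept. Among them, 11 were also lost without NODtoB6 replicate 1 (Eif2s3x, Entpd1, Fech, Gata3, Gzmm, H2-DMa, Il7r, Oas2, Tgtp1, Urod, Zfp36), 8 without B6toNOD replicate 1 (Fech, Gata3, Gzmm, H2-DMa, Igtp, Oas2, Selplg, Tgtp1) and 5 without B6toNOD replicate 2 (Eif2s3x, Entpd1, Fech, H2-DMa, Zfp36). H2-Eb1 (-0.52) and Icos (-2.65) passed without B6toNOD replicate 2. Turned NODtoB6 arrays ended 19 calls without a change of sign and reversed 30 genes, of which 29 had passed. These were Agpat1 (0.91), Birc5 (1.14), Cd28 (-0.82), Chchd4 (3.83), Dusp1 (-3.49), Fech (-2.46), Gzmm (5.0), Hba-x (-3.36), Hbb-b1 (-4.59), Hbb-bh1 (-3.63), Hbb-y (-3.46), Ifitm1 (-0.04), Ighm (-0.91), Igtp (-1.75), Ints8 (-2.72), Itgb2 (-0.64), Jchain (-4.09), Jund (3.04), Klf4 (2.0), Naxe (1.3), Ndufv1 (-1.52), Phykpl (-2.64), Plk1 (1.47), Ptgr1 (0.8), Selplg (0.35), Shroom2 (0.26), Slpi (-0.76), Tfrc (-0.21), Zfp36 (-2.74) and Zwilch (2.18). The cause of these changes was not tested, apart from the turned sign itself. Signal over background is not known here.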
